A study of Mus musculus with 10 samples.

Results

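Gene expression of cells sorted as c-Myc-high from metastatic and primary melanoma was compared across all genes. The metastatic group held 3 libraries from lymph node metastases and the primary group 2 libraries from skin tumours, 5 of the 10 libraries of the series. The other 5 libraries were the c-Myc-low cells of the same sites. All groups came from mice of the mixed strain C57BL/6:SV129, and their tumours were sorted fresh by flow cytometry, with GFP-positive cells taken as c-Myc-high and GFP-negative cells as c-Myc-low. The labels give neither the tumour-driving alleles, the promoter of the GFP reporter, the age of the mice nor whether replicates were separate animals. The p-values therefore measure only the spread between these samples. RNA was amplified before library preparation. Transcript counts were summed for each of 34162 gene names, and 16805 genes passed the filter on low counts and were tested.

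Melanoma arises from melanocytes, the pigment cells of the skin, which lie in contact with keratinocytes of the epidermis. Keratinocytes pass from a basal layer through suprabasal layers to the cornified layer, and each layer has its own keratins and structural proteins. A metastasis in a lymph node grows instead among B cells, T cells and the specialised vessels through which lymphocytes enter. The transcription factor c-Myc drives growth and ribosome production, and AMPK, the kinase in the title of the series, senses low cellular energy.

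The primary libraries, replicates 1 and 2, held 5075407 and 1603012 estimated counts. The metastatic libraries, replicates 1, 2 and 3, held 4425636, 4328063 and 2641865, and libraries are listed in this order throughout. Levels are given as CPM, a gene's counts as a share of its library, scaled by TMM factors that balance library composition. Log CPM values correlated at 0.621 between the primary libraries, at 0.587 to 0.674 between the metastatic ones and at 0.448 to 0.607 between the groups. Salivary gland genes took 19.5% of the count of metastatic replicate 1 and 5.21% of that of replicate 3, against at most 0.0481% in the other 3 c-Myc-high libraries. Primary replicate 2 and metastatic replicate 2 held more Y-linked than Xist counts and the other 3 held the opposite, so both groups mixed libraries of both patterns. Pigment genes were present in every library, as described further on. In every c-Myc-high library the summed marker genes of another cell type exceeded those of melanin. Basal keratinocyte genes had 38057.5 against 3946 CPM in primary replicate 1, and suprabasal ones 94490 against 665 CPM in primary replicate 2. Salivary genes had 232096 against 5090 CPM in metastatic replicate 1 and 70338 against 16482 CPM in replicate 3. In metastatic replicate 2 B cell genes had 25671 against 3174 CPM. Myc itself did not separate the sorted classes, with 104 to 997 CPM in c-Myc-high and 101 to 318 CPM in c-Myc-low libraries.

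Metastatic c-Myc-high cells had less RNA of epidermal genes, and some members of leukocyte, interferon and integrin lists were higher. With edgeR's quasi-likelihood test and Benjamini-Hochberg adjustment, 278 genes (1.65%) were higher and 389 (2.31%) lower at an adjusted p under 0.05. Without regard to the test, the metastatic libraries all lay above the primary ones for 2768 genes (16.5%) and all below them for 1714 (10.2%). Among called genes the libraries of the groups did not overlap for 278 of 278 higher and 382 of 389 lower genes. The calls were large, since the smallest log2 fold change, metastatic over primary, was 2.86 among higher and -2.43 among lower genes.

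Many calls rested on genes that were nearly silent on one side. Of the higher genes, 76 had no count in either primary library and 88 had 1 to 3 counts there. Of the lower genes, 65 had no count in any metastatic library and 95 had 1 to 3. Among the 5431 genes with 10 or more counts in each of the 5 libraries, 14 (0.258%) were higher and 71 (1.31%) lower. For silent genes the fold is bounded by setting the silent group to 3 counts, 0.573 CPM in primary and 0.284 CPM in metastatic cells. With 1 to 3 counts it is given as a ratio with a 95% interval, and floors and intervals cover counting error only. A fitted change of a silent gene depends on the fit's prior count and is no bound. With such genes at their bound, list medians were smaller in size, at -8.74 for suprabasal, -8.21 for cornified envelope, -5.88 for lipid barrier, -5.90 for hair follicle and -3.58 for Hox genes. They were 7.28 for pan-leukocyte, 7.75 for B cell, 5.37 for T and NK cell, 4.29 for macrophage, 7.35 for MHC class II and 3.86 for interferon-stimulated genes, and the fitted medians stand beside each list.

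**Figure D1:**
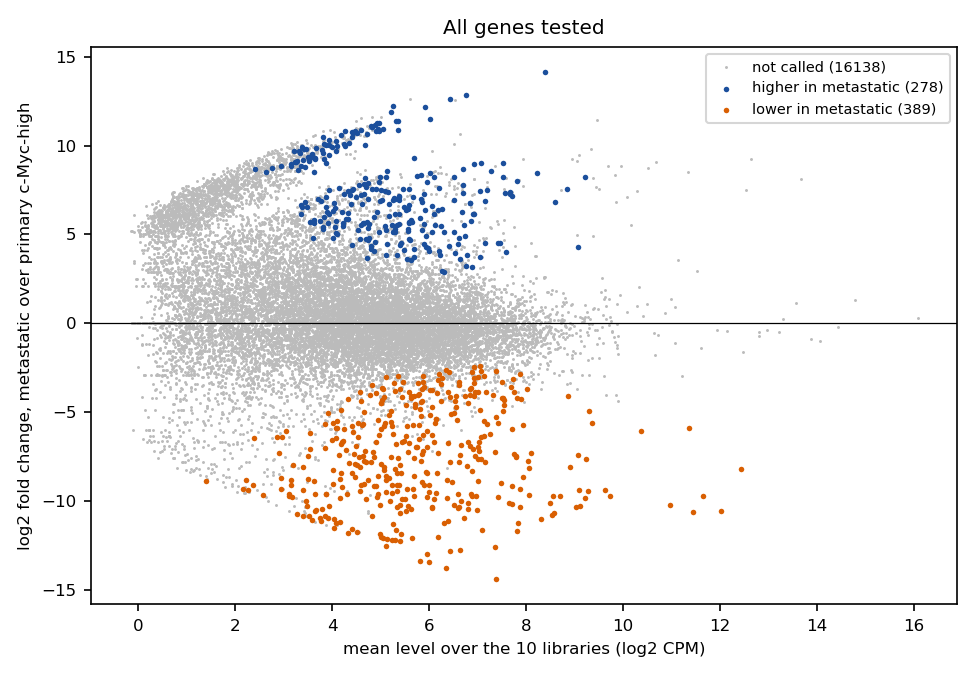
Log2 fold change of every tested gene (vertical axis, metastatic over primary c-Myc-high) against its mean level over the 10 libraries (horizontal axis, log2 CPM), 1 point per gene. The 278 genes called higher and the 389 called lower lie apart from 0, at or beyond 2.86 and -2.43.

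The balance between the directions depended on the tool and the libraries. DESeq2 called 2002 genes higher and 1246 lower. Weighted limma-voom called 0 and 166, and edgeR on the 5 c-Myc-high libraries alone called 6 and 149. Without metastatic replicate 3 edgeR called 720 higher and 448 lower. With both salivary-rich libraries left out, so that metastatic replicate 2 stood alone and was assumed to vary like the other groups, no gene was called, the smallest adjusted p was 0.0574, and 2809 higher and 1382 lower genes had an unadjusted p under 0.05. Of the 49 called higher genes picked by rule, 42 lost their call without primary replicate 1, and the other 7 kept it whichever of the 10 libraries was left out. Without metastatic replicate 1 or 2, 21 or 11 of them lost it, and without metastatic c-Myc-low replicate 2, 27. Of the 47 lower genes picked in the same way, 12 lost their call without some library, 10 of them without metastatic replicate 1 and 8 without primary replicate 1. No gene called here was called in the opposite direction under any of the 26 alternatives.

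Epidermal genes formed the largest named group among the lower genes. Of 133 epidermal list genes tested, 69 fell and 1 rose. Leaving out any 1 c-Myc-high library gave between 58 and 66 that fell, and 0 fell with both salivary-rich libraries left out. In sorted bulk samples fewer cells of a type and less RNA per cell cannot be told apart.

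Basal keratinocyte genes were high in both primary libraries. Of 13 measured, 7 fell (Krt5, Krt14, Krt15, Trp63, Col17a1, Lama3 and Bcl11b), and the list's median log2 fold change was -5.39 against 0.38 for all genes tested. Krt14, the keratin partner of basal cells, had 13209 and 991 CPM in primary replicates 1 and 2 and 4.04, 4.89 and 8.69 CPM in metastatic replicates 1, 2 and 3. Its groups did not overlap, although the primary libraries differed widely, and the log2 change was -10.25 (SE 1.28, adjusted p = 0.00222). Krt14 lies on chromosome 11 from 100203162 to 100207548 on the minus strand (GRCm38). Col17a1, a collagen of the hemidesmosomes that anchor basal cells, had 2297 and 443 CPM in primary and 1.88, 1.02 and 0 CPM in metastatic libraries. It fell by 10.32 on the log2 scale (SE 1.23, adjusted p = 0.00187).

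Suprabasal genes fell in larger number. Of 20 measured, 15 fell, and the median was -9.58. Krt1, the keratin of differentiating layers, had 15607 and 7140 CPM in primary and 5.65, 6.11 and 10.7 CPM in metastatic libraries. All 3 metastatic libraries were far below both primary ones, and the change was -10.57 (SE 1.13, adjusted p = 0.00137). Krt1 lies on chromosome 15 from 101845426 to 101850794. Krtdap, a secreted protein of differentiating keratinocytes, had 1331 and 2382 CPM in primary and 0.807, 0.408 and 3.58 CPM in metastatic libraries (log2 change -10.30, SE 1.10, adjusted p = 0.00138). The desmoglein gene Dsg1a had 343 and 1259 CPM in primary and 0.408 to 1.02 CPM in metastatic libraries (adjusted p = 0.00137). Dsg1b fell as well, and these paralogs are near-identical, so the split of reads between them is uncertain.

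Cornified envelope genes encode the cross-linked protein shell of dead surface cells. Of 32 measured, 24 fell, the median was -9.86 and none had a positive value. Lor, loricrin, had 401 and 223 CPM in primary and 0.269, 0.204 and 0.511 CPM in metastatic libraries. The metastatic libraries held 3 counts in all, and the ratio of primary to metastatic level was 1284 (95% interval 439 to 6232), with an adjusted p of 0.00138. Lce1b, a late cornified envelope protein, had 246 and 148 CPM in primary cells and 1 count in metastatic cells (ratio 2395, 95% interval 429 to 94663, adjusted p = 0.00187). The fall of this list was seen in Lce1, Sprr and transglutaminase genes alike, with Flg, Flg2, Ivl, Tgm1 and Tgm3 among the members called.

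Genes of the epidermal lipid barrier and of cell junctions fell in part. Of 17 lipid barrier genes 6 fell (median -7.41), among them Elovl4, an elongase of very long fatty acids. Elovl4 had 150.2 and 349.8 CPM in primary and 0.269, 0.408 and 0 CPM in metastatic libraries (ratio 674, 95% interval 229.9 to 3272, adjusted p = 0.00137). Of 13 desmosome genes 7 fell (median -5.26), among them Dsc3, a desmosomal cadherin, with 1153 and 1242 CPM in primary and 0.807, 0.204 and 4.60 CPM in metastatic libraries (log2 change -9.46, SE 1.23, adjusted p = 0.00272). Pkp2, a plakophilin found in many cell types and named here after its values were seen, rose instead. It had no count in the primary libraries and 35.3, 9.58 and 7.67 CPM in the metastatic ones, at least 30.6-fold higher by their mean (adjusted p = 0.0463). Of 14 hair follicle genes 7 fell (median -8.23), and of 24 genes of epithelial adhesion and identity 3 fell, among them Cdh3 and Grhl1 (median -2.43). Grhl1, an epithelial transcription factor, had 26.4 and 862 CPM in primary libraries, and its adjusted p was 0.18 without primary replicate 2, 0.0559 without metastatic replicate 1 and 0.0699 without metastatic replicate 2.

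The hair follicle members that fell included Krt6a, a keratin of follicles and activated epidermis, with 2487 and 666 CPM in primary and 1.08, 2.04 and 2.05 CPM in metastatic libraries (log2 change -9.83, SE 1.03, adjusted p = 0.00137). A second row of the table, written KRT6A in capitals, fell as well and may share reads with Krt6a. Gata3, a transcription factor of follicles and of T cells, had 249 and 3807 CPM in primary and 4.04, 11.6 and 6.14 CPM in metastatic libraries (log2 change -8.11, SE 1.16, adjusted p = 0.00389).

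**Figure D2:**
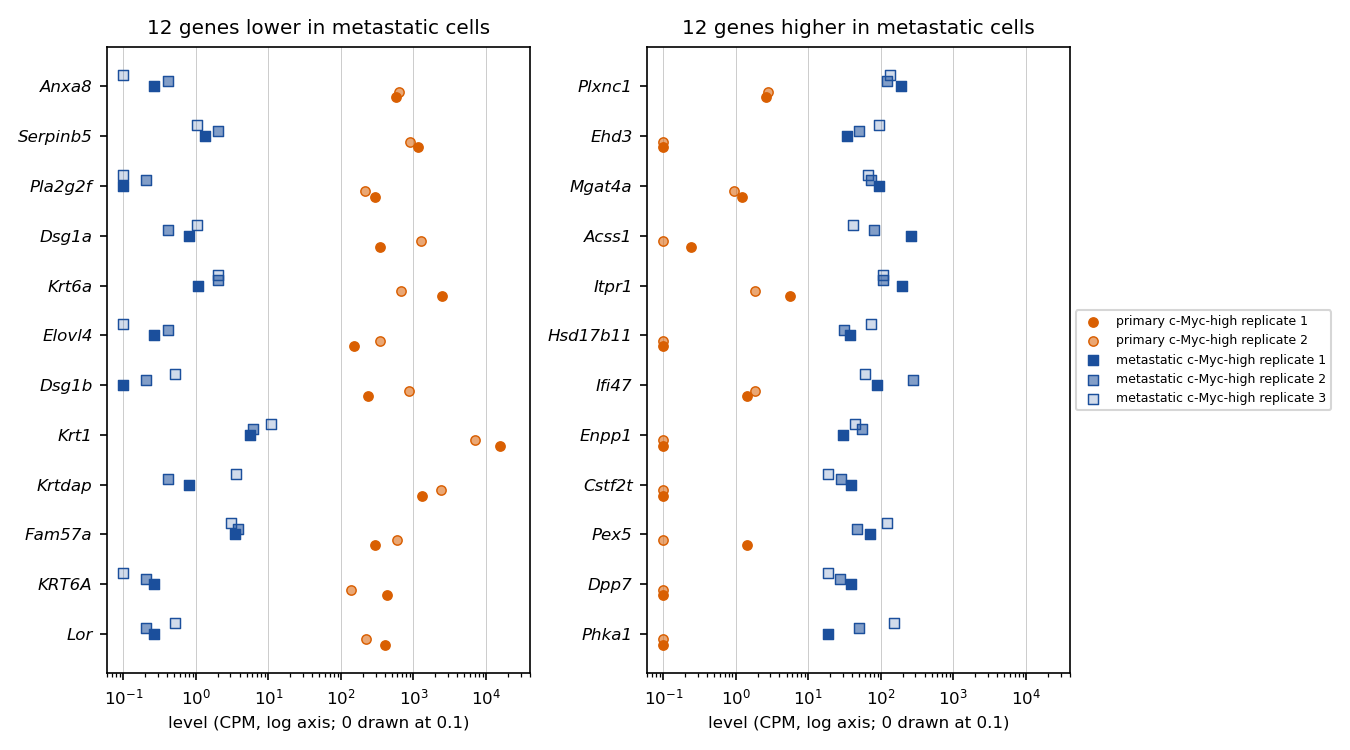
Levels (CPM, log axis, 0 drawn at 0.1) of the 12 genes with the lowest p in each direction among called genes whose groups do not overlap. Each library has 1 symbol, circles for the 2 primary and squares for the 3 metastatic c-Myc-high libraries. The lack of overlap is thus a condition of the choice. Several higher genes, such as Ehd3 and Dpp7, sit at 0 in both primary libraries.

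The RefSeq sequence before the transcription start (GRCm38.p6) is shown for 3 of the lower genes and 1 higher gene, as examples of windows that hold motifs searched. Each is the 250 bases before the start, 5′ to 3′ on the gene's strand, with motif matches in capitals.
Krtdap, chr7:30787655-30787904, plus strand: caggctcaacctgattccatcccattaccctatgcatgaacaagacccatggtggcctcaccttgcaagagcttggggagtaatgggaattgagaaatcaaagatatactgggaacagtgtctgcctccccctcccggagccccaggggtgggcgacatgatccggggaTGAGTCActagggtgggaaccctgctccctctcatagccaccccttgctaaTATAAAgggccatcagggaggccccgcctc
Lor, chr3:92083143-92083392, minus strand: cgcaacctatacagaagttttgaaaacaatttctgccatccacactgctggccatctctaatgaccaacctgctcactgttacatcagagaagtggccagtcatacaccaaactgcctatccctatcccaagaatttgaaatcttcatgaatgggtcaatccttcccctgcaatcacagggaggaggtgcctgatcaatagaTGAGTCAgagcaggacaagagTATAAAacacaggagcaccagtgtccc
Serpinb5, chr1:106860925-106861174, plus strand: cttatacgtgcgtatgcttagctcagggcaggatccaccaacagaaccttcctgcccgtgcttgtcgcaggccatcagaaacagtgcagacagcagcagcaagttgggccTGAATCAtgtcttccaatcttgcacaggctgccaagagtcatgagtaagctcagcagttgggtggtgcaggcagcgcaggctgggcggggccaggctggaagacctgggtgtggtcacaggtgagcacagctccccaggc
Dpp7, chr2:25356333-25356582, minus strand: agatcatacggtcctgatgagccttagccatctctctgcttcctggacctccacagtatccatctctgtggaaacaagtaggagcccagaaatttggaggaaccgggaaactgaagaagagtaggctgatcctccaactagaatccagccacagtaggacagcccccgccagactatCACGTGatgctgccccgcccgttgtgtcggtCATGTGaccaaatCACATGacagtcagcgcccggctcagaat

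The motifs, searched on both strands, were the AP-1 site TGANTCA, the TATA box TATAAA, the E-box CACGTG bound by Myc-type factors and the M-box core CATGTG bound by Mitf-type factors. In Serpinb5 the AP-1 match began 140 bases before the start. Krtdap held an AP-1 match at 81 and a TATA box at 30 bases before the start, and Lor held them at 48 and 27. Dpp7, a higher gene, held an E-box at 73 bases and M-box cores at 42 and 29 bases before the start, the latter read on the other strand. Of 35 genes named by p within all called genes or within well-counted called genes, 23 had a window, and 8 of these 23 held a match. The other matches were in higher genes. Mgat4a held an AP-1 site at 141 bases, Ifi47 a TATA box at 25 and Tecpr1 an M-box core at 221 bases before the start. Gcnt1 held TATA boxes at 244 and 29 bases before the start, the latter read on the other strand. For Mgat4a and Gcnt1 the matches were in 1 of several windows. The remaining 15 genes held none of the motifs in their windows, among them the lower genes Anxa8, Elovl4, Krt14 and Gata3. For Krt14 and for Gata3 the only window lay inside the annotated gene span. The sequence before the outer start of these genes was therefore not searched.

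AP-1 matches lay in 12.8% of 313 windows of lower genes, in 6.5% of 277 windows of higher genes and in 5.08% of 13258 windows of all tested genes. The TATA box lay in 16.3%, 6.5% and 7.4% of them in the same order. E-boxes lay in 3.83%, 7.58% and 7.87%, and M-box cores in 11.8%, 9.03% and 7.96%. Among all 32851 windows of the table the shares were 6.75% for AP-1, 12.4% for TATA, 6.02% for the E-box and 12.3% for the M-box core. These shares are descriptions, and no difference between them was tested.

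Several genes with the lowest p that the epidermal lists do not hold also fell, and whether their RNA came from epidermal cells was not tested. Anxa8, an annexin that binds membranes with calcium, had 573 and 628 CPM in primary and 0.269, 0.408 and 0 CPM in metastatic libraries. The ratio of primary to metastatic level was 2061 (95% interval 705 to 9999), with an adjusted p of 0.00137. Anxa8 lies on chromosome 14 from 34085981 to 34100571. Serpinb5, the serpin called maspin, had 1140 and 885 CPM in primary and 1.35, 2.04 and 1.02 CPM in metastatic libraries (log2 change -9.37, SE 0.88, adjusted p = 0.00137). Both genes had close values within each group, and both kept their call when any 1 library was left out. Pla2g2f, a secreted phospholipase, had 296 and 217 CPM in primary cells and 1 count in metastatic cells (adjusted p = 0.00137). Fam57a, a membrane protein gene, fell by 6.97 on the log2 scale (SE 0.77, adjusted p = 0.00138).

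The 71 lower genes with 10 or more counts in every c-Myc-high library included Slco3a1 and Pqlc1. Slco3a1, an organic anion transporter, had 724 and 602 CPM in primary and 6.73, 15.9 and 14.3 CPM in metastatic libraries (log2 change -5.75, SE 0.71, adjusted p = 0.00208). The membrane protein gene Pqlc1 had 876 and 634 CPM in primary and 34.2 to 43.5 CPM in metastatic libraries (log2 change -4.33, SE 0.72, adjusted p = 0.00846). In both genes the highest metastatic library was below the lowest primary one.

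A few members fell in the Hox, homing, S100 and heat shock lists, beside 2.31% lower over all genes tested. Of 21 Hox genes measured, 2 fell, Hoxa7 and Hoxc6 (list median -4.22), and Hoxa7 had 855 and 42.0 CPM in primary cells and 2 counts in metastatic cells. Of 19 homing chemokines and receptors, the skin chemokine genes Ccl27a and Ccl27b fell. Ccl27a had 725 and 64.4 CPM in primary and 2.42 to 5.11 CPM in metastatic libraries (adjusted p = 0.00805). S100a14 and S100a16 fell and S100a1 rose among 9 S100 genes, beside 1.65% higher over all genes tested. The heat shock gene Hspb1 fell among 24 immediate early and heat shock genes. The call of S100a1 was lost without 6 of the 10 libraries, and those of S100a16 and Hoxc6 without 3 each. Without primary replicate 1 the adjusted p was 0.174 for S100a1, 0.13 for S100a16 and 0.093 for Hoxc6.

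Among higher genes, the lowest p belonged to Plxnc1, which encodes a semaphorin receptor. It had 2.64 and 2.80 CPM in primary and 189, 123 and 134 CPM in metastatic libraries, with values close within each group. The log2 change was 5.77 (SE 0.82, adjusted p = 0.00361). Plxnc1 lies on chromosome 10 from 94790866 to 94944835. The call held without any 1 of the 10 libraries, and the adjusted p was 0.0817 on the 5 c-Myc-high libraries alone and 0.36 with limma-trend on log2(RPKM + 1).

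The next genes by p were Ehd3, Mgat4a, Acss1 and Itpr1. Mgat4a, an enzyme that branches N-glycans, had 1.20 and 0.933 CPM in primary and 95.3, 72.8 and 67.5 CPM in metastatic libraries (log2 change 6.12, SE 1.01, adjusted p = 0.00804). Itpr1, a calcium release channel, had 5.52 and 1.87 CPM in primary and 195, 108 and 105 CPM in metastatic libraries (log2 change 5.11, SE 0.87, adjusted p = 0.00932). Ehd3, a protein of endocytic recycling, had no count in the primary libraries and 33.6, 50.3 and 95.1 CPM in the metastatic ones, at least 104-fold higher by their mean (adjusted p = 0.00623). All metastatic libraries were above both primary ones in each of the 3 genes, which was a condition of their choice. For Ehd3 the bound rests on the primary depth, since 3 counts in primary replicate 2 alone would be 2.80 CPM.

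The 12 higher genes with the lowest p also included several enzymes. Acss1, a mitochondrial acetyl-CoA synthetase, had 0.240 and 0 CPM in primary and 262, 80.9 and 40.9 CPM in metastatic libraries. The ratio was 719 (95% interval 129 to 28424, adjusted p = 0.00891), and without primary replicate 1 the adjusted p was 0.0593. Enpp1, an ectoenzyme that makes pyrophosphate, had no count in primary cells and 29.9, 55.6 and 44.5 CPM in metastatic cells, at least 75.7-fold higher (adjusted p = 0.0108). Its adjusted p without primary replicate 1 was 0.0507. Dpp7, a lysosomal dipeptidyl peptidase, had no count in primary cells and 39.0, 27.7 and 18.4 CPM in metastatic cells, at least 49.6-fold higher (adjusted p = 0.0111). Phka1, a subunit of phosphorylase kinase, which starts glycogen breakdown, had no count in primary cells and 18.8, 49.3 and 152 CPM in metastatic cells, at least 128-fold higher (adjusted p = 0.0115). Its adjusted p was 0.0808 without primary replicate 1. Hsd17b11, Cstf2t and Pex5, the import receptor of peroxisomes, completed the 12 together with the interferon-induced Ifi47.

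The 14 higher genes with 10 or more counts in every c-Myc-high library included Gcnt1, St3gal1 and Atp2a3. Gcnt1 and St3gal1, which build and sialylate O-glycans, had 6.24 and 13.1 CPM and 14.2 and 11.2 CPM in primary libraries. In metastatic replicates 1, 2 and 3 Gcnt1 had 238, 94.4 and 139 CPM and St3gal1 104, 127 and 245 CPM (log2 changes 4.05 and 3.63, SE 0.84 and 0.78, adjusted p = 0.024 and 0.028). Atp2a3, a calcium pump of the endoplasmic reticulum, had 4.08 and 10.3 CPM in primary and 1075, 1050 and 242 CPM in metastatic libraries (log2 change 6.83, SE 1.41, adjusted p = 0.024). The groups did not overlap in these 3 genes. Gcnt1 was called under 13, St3gal1 under 14 and Atp2a3 under 18 of 26 alternatives. Left out in turn, 6 of the 10 libraries ended the call of Gcnt1 and 6 that of St3gal1, and 3 ended that of Atp2a3, with the highest adjusted p without primary replicate 1 (0.0875, 0.0838 and 0.124). Txndc16 and Tecpr1 were also in this group.

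Leukocyte genes rose in part. Of 104 leukocyte list genes, 19 rose and 1 fell, Sdc1, a surface proteoglycan of plasma cells that epithelia also carry. The count was 1 without primary replicate 1, 2 without primary replicate 2, 4 without metastatic replicate 1, 5 without metastatic replicate 2, 47 without metastatic replicate 3 and 0 with both salivary-rich libraries left out. Without a c-Myc-low library it was 7 for either primary replicate and 13, 3 and 10 for metastatic replicates 1, 2 and 3. The replicate block gave 2.

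Pan-leukocyte genes gave 8 of 15 called higher (median 7.50), with a summed level of 181 and 47.6 CPM in primary and 1976, 7210 and 472 CPM in metastatic libraries. Ptprc, the CD45 phosphatase of all leukocytes, had 2.88 and 0.933 CPM in primary and 240.1, 620.0 and 55.7 CPM in metastatic libraries. It rose by 7.16 on the log2 scale (SE 1.48, adjusted p = 0.0241). Without primary replicate 1 or 2 its adjusted p was 0.101 or 0.0682. Metastatic replicate 2 was highest and replicate 3 lowest of the metastatic libraries, both in Ptprc and in the sum.

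B cell genes gave 7 of 17 called higher (median 8.01), among them Ms4a1, Cd22, Cr2, Faim3, Spib and Pou2af1. The call of Pou2af1 was lost without 8 of the 10 libraries and that of Cr2 without 2. The list summed to 55.4 and 7.46 CPM in primary and 3074, 25671 and 317 CPM in metastatic libraries. Spib, a transcription factor of B cells, had 1.44 and 1.87 CPM in primary and 324, 451 and 69.5 CPM in metastatic libraries (log2 change 7.44, SE 1.35, adjusted p = 0.0137). Without primary replicate 1 its adjusted p was 0.087. Of 26 T and NK cell genes, Lck, Cd2, Il7r and Nkg7 rose (median 6.82), and the list summed to 83.0 and 6.53 CPM in primary and 554, 1497 and 113 CPM in metastatic libraries. Without primary replicate 1 the adjusted p was 0.136 for Lck, 0.145 for Il7r and 0.132 for Nkg7. With each of the 10 libraries left out in turn, Il7r lost its call 9 times, Nkg7 9 times and Lck 5 times.

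Myeloid lists held no called gene. Macrophage and monocyte genes summed to 6.48 and 151 CPM in primary and 160.4, 2079 and 525 CPM in metastatic libraries (0 of 19 called, median 4.85). Neutrophil and mast cell genes reached 13728 CPM in metastatic replicate 2 and 75.4 to 350.2 CPM in the other 4 c-Myc-high libraries (0 of 9 called, median 6.39). Dendritic cell genes gave 0 of 11 called (median 7.01, or 3.83 with silent genes at their bound). Over all genes tested 1.65% were higher, so lists of this size without a call are not read as a result about them. The part of leukocytes in the other higher calls was not tested.

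**Figure D3:**
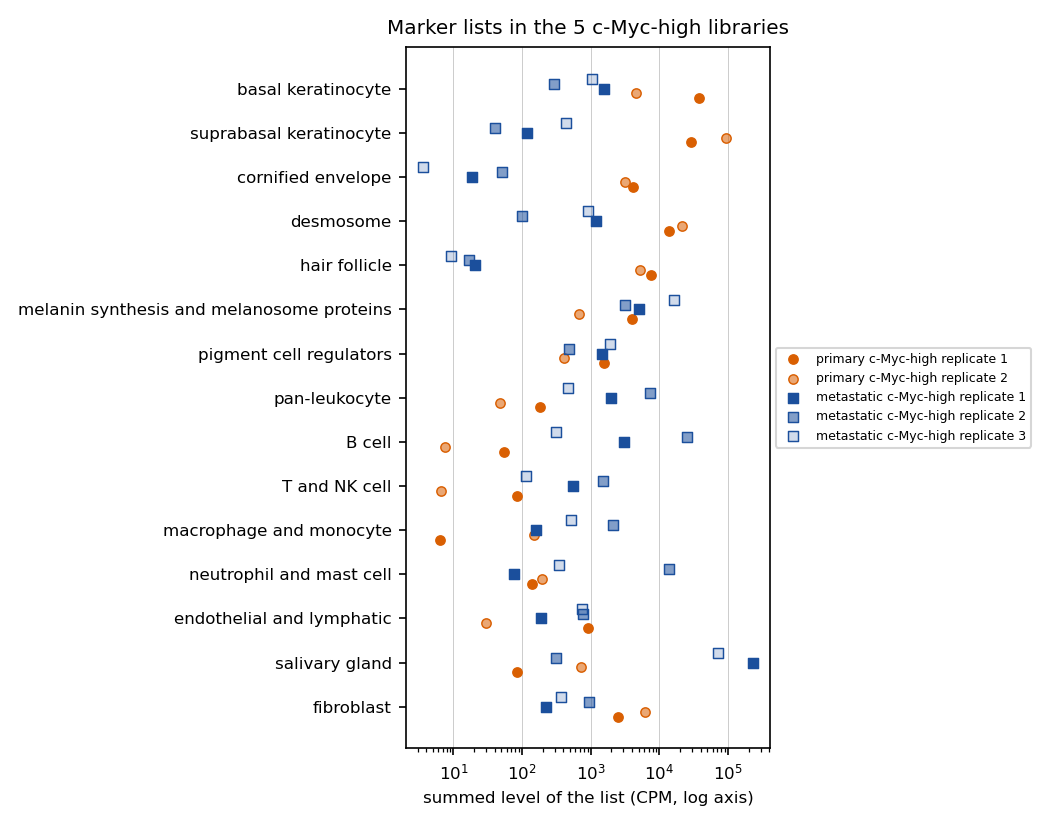
Summed level (CPM, log axis) of 15 marker lists in the 5 c-Myc-high libraries, with 1 symbol per library, circles for primary and squares for metastatic cells. Epidermal lists lie higher in both primary libraries than in any metastatic library, leukocyte lists are highest in metastatic replicate 2, and salivary gland genes reach 232096 and 70338 CPM in metastatic replicates 1 and 3.

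Antigen presentation genes were called in small number. Among 11 MHC class II presentation genes, H2-Aa and H2-Eb1 rose (median 8.05). H2-Aa had 5.76 and 1.87 CPM in primary and 1191, 2367 and 50.6 CPM in metastatic libraries (log2 change 8.20, SE 1.76, adjusted p = 0.0283), the same order of libraries as the B cell genes. Without primary replicate 1 or 2 or metastatic replicate 1 its adjusted p was 0.113, 0.0813 or 0.0559. H2-Eb1 had an adjusted p of 0.0484 and was called under 7 of 26 alternatives. Its call was lost without 9 of the 10 libraries, with an adjusted p of 0.197 without primary replicate 1. No gene of 17 for MHC class I presentation was called (median 0.71), beside 1.65% higher and 2.31% lower over all genes tested.

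Interferon-stimulated genes gave 6 of 35 called higher (median 5.39), Ifit1, Ifit3, Ifi47, Gbp3, Gbp4 and Cxcl10. Ifi47, an interferon-induced GTPase, had 1.44 and 1.87 CPM in primary and 88.0, 273 and 61.4 CPM in metastatic libraries (log2 change 6.44, SE 1.11, adjusted p = 0.0103). Without primary replicate 1 its adjusted p was 0.0625. Gbp4, a guanylate-binding protein, had 0.480 and 0.933 CPM in primary and 49.8, 80.7 and 120 CPM in metastatic libraries, with metastatic replicate 3 highest. The adjusted p without primary replicate 1 was 0.0737 for Gbp4 and 0.087 for Gbp3, and Gbp3 also lost its call without any 1 of the 5 c-Myc-low libraries. The order of the metastatic libraries thus differed between these interferon genes.

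Homing and adhesion genes also rose in part. Among 19 homing chemokines and receptors, Cxcr4 and S1pr1 rose. S1pr1, the receptor that guides lymphocytes out of lymph nodes, had 0.480 and 0 CPM in primary and 64.6, 86.2 and 37.8 CPM in metastatic libraries (ratio 183, 95% interval 50.3 to 1510, adjusted p = 0.0184, and 0.0674 without primary replicate 1). Of 21 integrins, Itga1, Itga4, Itgal and Itgb3 rose (median 0.99). Itgb3 lost its call without 7 of the 10 libraries and Itga1 without 2, with adjusted p-values of 0.133 and 0.113 without primary replicate 1. Itga4, an integrin of leukocytes and of neural crest cells, had 16.3 and 5.60 CPM in primary and 118, 332 and 329 CPM in metastatic libraries (log2 change 4.53, SE 1.01, adjusted p = 0.0334). Without primary replicate 1 or 2 its adjusted p was 0.0805 or 0.0731, without metastatic replicate 2 it was 0.0583, and it lost its call without each of the 3 metastatic c-Myc-low libraries. Among 17 endothelial and lymphatic genes Pecam1 and Glycam1 rose, and Glycam1, a mucin of the vessels by which lymphocytes enter nodes, had no count in primary cells and 38.5, 191 and 247 CPM in metastatic cells (adjusted p = 0.0373). The adjusted p of Glycam1 was 0.158 and 0.0703 without primary replicates 1 and 2, 0.0537 and 0.0618 without metastatic replicates 1 and 2, and 0.0723 without metastatic c-Myc-low replicate 2. Pecam1 lost its call without 7 of the 10 libraries, with an adjusted p of 0.162 without primary replicate 1.

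Salivary gland genes differed widely among the metastatic libraries. Their summed level was 84.5 and 716 CPM in primary and 232096, 316 and 70338 CPM in metastatic replicates 1, 2 and 3, so replicate 2 lay between the primary libraries. Of 33 genes, 3 were called higher, Klk1b5, Klk1b9 and Kcnn4. Klk1b5, a glandular kallikrein, had 0.720 and 16.8 CPM in primary and 2737, 41.2 and 1795 CPM in metastatic libraries (log2 change 7.53, SE 1.90, adjusted p = 0.0493). Its call was lost without 8 of the 10 libraries, with adjusted p-values of 0.166 without primary replicate 1, 0.0871 without metastatic replicate 1 and 0.0559 without replicate 3, and it held under 7 of 26 alternatives. Klk1b9 lost its call without 8 libraries as well. Kcnn4, a calcium-activated potassium channel also found in lymphocytes, had 1.44 and 1.87 CPM in primary and 105, 70.1 and 125 CPM in metastatic libraries, without the gap of replicate 2 (adjusted p = 0.0133, and 0.0742 without primary replicate 1). Leaving the list out of the library sizes gave 278 higher and 393 lower genes. Of the 278 higher genes, 90 (32.4%) were highest in metastatic replicate 1, 121 (43.5%) in replicate 2 and 67 (24.1%) in replicate 3, against 33.2%, 38.4% and 28.4% of all genes.

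Pigment cell genes were present at both sites, and none of those for melanin, melanosome proteins or lineage regulation was called. Over all genes tested 1.65% were higher and 2.31% lower, so the lack of calls in lists of this size is not read as a lack of change. The 13 genes of melanin synthesis and melanosome proteins had a median of 1.66, with 12 positive values and 1 negative. The 15 pigment cell regulators had one of 0.99, with 11 positive values and 4 negative. The summed level of the melanin list was 3946 and 665 CPM in primary and 5090, 3174 and 16482 CPM in metastatic libraries. Dct, an enzyme of melanin synthesis, had 815 and 353 CPM in primary and 1292, 643 and 11530 CPM in metastatic libraries, which overlapped (log2 change 2.94, SE 1.36, adjusted p = 0.194).

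Pmel, the protein of melanosome fibrils, had 65.0 and 28.9 CPM in primary and 154, 146 and 147 CPM in metastatic libraries, which did not overlap (log2 change 1.66, SE 0.71, adjusted p = 0.168). Tyr, Mlana, Mitf and Sox10 overlapped between the groups, with log2 changes of 1.86, 1.48, 1.37 and 0.48 (SE 1.08, 1.12, 1.05 and 0.97, adjusted p = 0.282, 0.407, 0.414 and 0.785). In Sox10, a regulator of the melanocyte lineage, primary replicate 2 was low at 13.1 CPM, while primary replicate 1 had 294 CPM and the metastatic libraries 289, 158 and 197 CPM. The same primary library was lowest of the 5 in Mlana, Mitf, Dct, Tyr and Pmel. Among 22 genes of melanosome transport and biogenesis, Hps3, a part of a complex that sorts melanosome cargo, rose. It had 0.720 and 2.80 CPM in primary and 30.1, 44.8 and 159 CPM in metastatic libraries (log2 change 5.66, SE 1.17, adjusted p = 0.0241), and its call was lost without 4 of the 10 libraries, with an adjusted p of 0.112 without primary replicate 1.

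The list of invasive and mesenchymal state genes, a pattern described in dedifferentiated melanoma cells, gave 1 gene called in each direction. Of 25 measured, 11 had positive and 14 negative values (median -0.17). Beside 1.65% higher and 2.31% lower over all genes tested, so few calls are not read as a result about this list. Egfr, the epidermal growth factor receptor, had 286 and 222 CPM in primary and 29.1, 7.34 and 7.67 CPM in metastatic libraries (log2 change -4.11, SE 0.94, adjusted p = 0.0368). Its call was lost without 6 of the 10 libraries, with adjusted p-values of 0.0724 without primary replicate 1 and 0.0775 and 0.0587 without metastatic replicates 2 and 3. Nes, the intermediate filament protein nestin, had 0.240 and 0 CPM in primary and 63.5, 8.36 and 19.9 CPM in metastatic libraries. Nes held 1 count in the primary libraries, and the ratio of metastatic to primary level was 157 (95% interval 27.9 to 6201, adjusted p = 0.0319). Its call was lost without 7 of the 10 libraries, with an adjusted p of 0.113 without primary replicate 1.

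Myc, named in the title of the series, did not pass the test. It had 997 and 104 CPM in primary and 148, 267 and 234 CPM in metastatic libraries, so the primary libraries lay on both sides of the metastatic ones (log2 change -1.35, SE 0.87, adjusted p = 0.327). Neither the Myc and MAX network (11 genes) nor a list of 49 Myc targets held a call, with medians of 0.24 and -0.61. Over all genes tested 1.65% were higher and 2.31% lower, so a list of this size without a call is not read as a result about it. None of 32 ribosome biogenesis genes (median -0.65), 27 mitosis genes (-0.72) and 28 DNA replication genes (0.21) was called. Of these, primary replicate 1 was the highest of the 5 libraries in the summed mitosis genes, with 6087 CPM against 735 in primary replicate 2 and 878 to 1804 in metastatic libraries.

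AMPK genes gave no call among 20 subunits and upstream kinases (median -0.10). Prkaa1, a catalytic subunit, had 41.5 and 17.7 CPM in primary and 16.1, 63.6 and 29.1 CPM in metastatic libraries (log2 change 0.28, SE 0.77, adjusted p = 0.844). Prkaa2, the other catalytic subunit, had 5.04 and 7.46 CPM in primary and 81.3, 0.408 and 26.6 CPM in metastatic libraries, with metastatic replicate 2 the lowest of all 5 (log2 change 2.54, SE 1.73, adjusted p = 0.353). Among 23 AMPK substrates Tbc1d4, a regulator of glucose transporter traffic, rose, and among 26 glycolysis and lactate genes Pdk2, a kinase that restrains pyruvate dehydrogenase, rose. Pdk2 had no count in primary cells and 64.9, 8.97 and 67.0 CPM in metastatic cells, at least 82.0-fold higher (adjusted p = 0.0187, and 0.092 without primary replicate 1). Tbc1d4 had an adjusted p of 0.0481 and was called under 5 of 26 alternatives, so its call stood at the edge of the threshold. No gene of 38 for oxidative phosphorylation was called. Beside 1.65% higher and 2.31% lower over all genes tested, so few calls are not read as a result about these pathways.

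Oxidative stress genes gave 2 calls, both lower, beside 2.31% lower over all genes tested. So few calls are not read as a result about these lists. None of 30 enzymes that handle peroxide, superoxide and glutathione was called (median 0.08), and their summed level was 2056 and 1882 CPM in primary and 2122, 1957 and 2246 CPM in metastatic libraries. Nfe2l2, which encodes Nrf2, the main regulator of antioxidant genes, had 480.0 and 106 CPM in primary and 100.4, 175 and 145 CPM in metastatic libraries (log2 change -1.07, SE 0.70, adjusted p = 0.338). Of 27 Nrf2 and target genes Abcc1, an exporter of glutathione conjugates, fell. It had 1590 and 139.9 CPM in primary and 79.1, 46.1 and 11.2 CPM in metastatic libraries (log2 change -4.25, SE 1.01, adjusted p = 0.0419), and its call was lost without 9 of the 10 libraries, with an adjusted p of 0.247 without primary replicate 1. Of 3 metallothioneins Mt4 fell, on 729 CPM in primary replicate 2 alone against 0.480 CPM in primary replicate 1, and its call was lost without 4 of the 10 libraries, with an adjusted p of 0.194 without primary replicate 2.

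**Figure D4:**
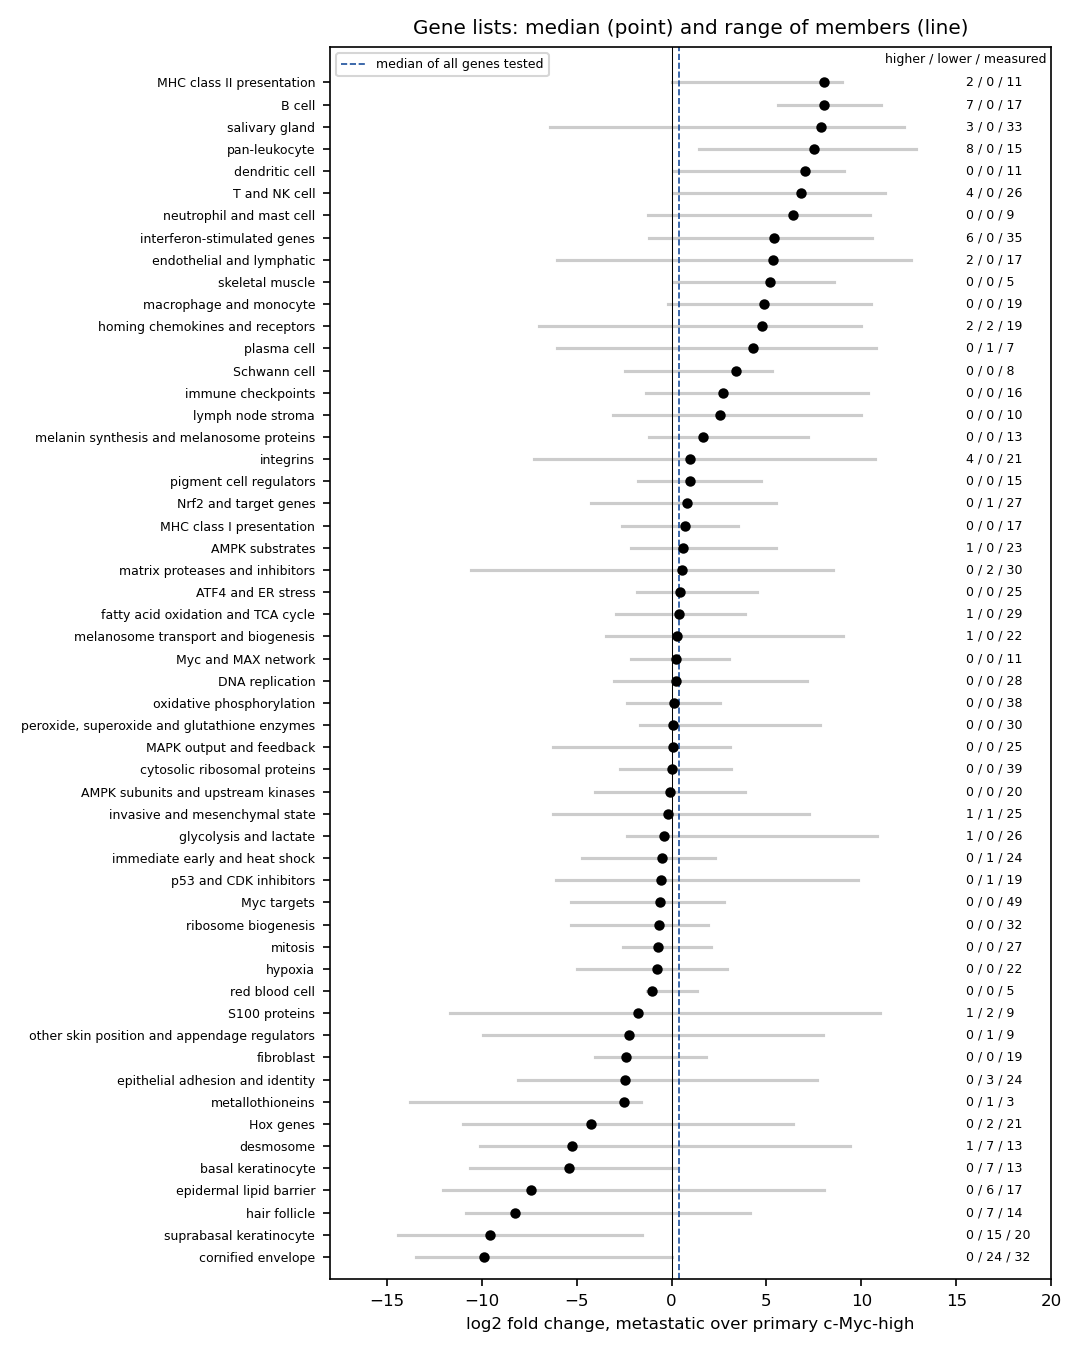
Median log2 fold change (point) and range of the measured members (line) of 54 gene lists, metastatic over primary c-Myc-high, with the number of members called higher, called lower and measured at the right. Epidermal lists lie far left of the median of all genes (dashed, 0.38), leukocyte and MHC class II lists far right, and Myc, AMPK and oxidative phosphorylation lists near it.

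The same sites were compared in c-Myc-low cells. That comparison uses other libraries, but both came from 1 fit over all 10 with shared estimates of the spread, so the calls are not independent. Leaving out metastatic c-Myc-low replicate 2, for example, lowered the higher calls in c-Myc-high cells from 278 to 49. There 63 genes (0.375%) were higher and 292 (1.74%) lower in metastatic cells. Of the 389 genes lower in c-Myc-high cells, 227 were also called lower in c-Myc-low cells, 58.4% of the former and 77.7% of the latter list. Of the 278 higher genes, 41 were also called higher in c-Myc-low cells, 14.7% and 65.1% of the lists. The sign was shared by 379 of 389 lower and 263 of 278 higher genes, while 46% of all genes had a negative value in c-Myc-low cells. The lower genes had a median of -7.53 in c-Myc-high and -6.33 in c-Myc-low cells, and the higher genes 6.95 and 3.35, with silent genes at their fitted values.

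**Figure D5:**
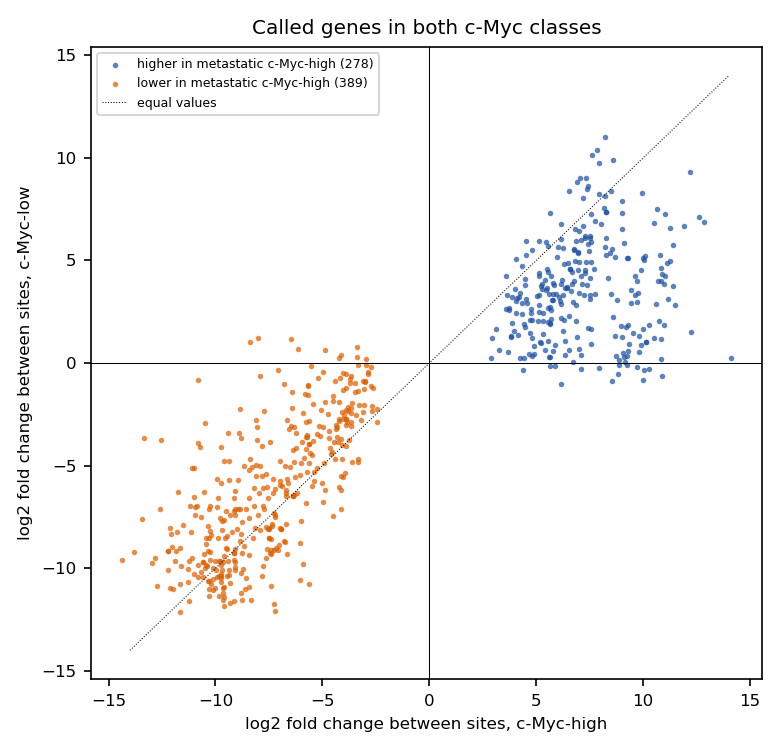
Log2 fold change between sites in c-Myc-low cells (vertical axis) against that in c-Myc-high cells (horizontal axis) for the 278 genes called higher and the 389 called lower in c-Myc-high cells, 1 point per gene. Lower genes lie nearer the dotted line of equal values than higher genes, whose median is 6.95 in c-Myc-high and 3.35 in c-Myc-low cells, and the genes were chosen by the horizontal value.

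Because the genes were chosen in c-Myc-high cells, a larger median there is given as a description. The difference between the classes was tested for every gene, and edgeR called 0 of 16805 (0%), with 1150 at an unadjusted p under 0.05, while DESeq2 called 84. The lowest p among positive differences belonged to Pop4, a subunit of an RNA-processing complex, with Slc10a3 and Arfgap3 next. Pop4 had no count in the primary c-Myc-high libraries and 22.6, 23.6 and 17.9 CPM in the metastatic ones, at least 37.3-fold higher by their mean. In c-Myc-low cells its log2 change was -0.21 (SE 0.88). The adjusted p of the difference between classes was 0.724, and in c-Myc-high cells the call of Pop4 was lost without primary replicate 1 (adjusted p = 0.0601).

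For single genes the changes in both classes stood side by side. Krt1 had a log2 change of -10.57 in c-Myc-high and -10.45 in c-Myc-low cells, a difference of -0.13 (SE 1.19). For Serpinb5 the changes were -9.37 and -10.07. Plxnc1 changed by 5.77 in c-Myc-high and 3.34 in c-Myc-low cells, a difference of 2.42 (SE 0.90, adjusted p = 0.724). Acss1 and Dpp7 were nearly silent in primary c-Myc-high cells, as given above, and had log2 changes of 1.84 and 1.03 in c-Myc-low cells. Their differences between classes did not pass the test either (both adjusted p = 0.724).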

How the data were processed

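RNA-seq was analysed from the authors' deposited table of 92214 transcripts under 34162 gene names. It holds estimated counts per transcript, deposited unscaled, and RPKM, which per the file headers is a separate column set. Bowtie2, limma and the mm10 build appear, unversioned, in the submitters' processing notes. Not given in the sources used here are the read-assigning program, annotation release and strandedness, so reads of overlapping or near-identical genes are uncertain. In 25 gene names a spreadsheet-like date had replaced the symbol, and these are not named. Amplified libraries had no molecular identifiers in the labels.

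Estimated counts were summed over the transcripts of each gene name and rounded. Groups and replicate numbers came from the labels. Genes passing edgeR's filterByExpr were fitted with robust quasi-likelihood tests in edgeR 4.0.16 (R 4.3.3), with TMM scaling, 4 groups over all 10 libraries, 6 residual degrees of freedom and no covariate. A gene was called at a Benjamini-Hochberg adjusted p under 0.05 over all genes tested, and adjusted p-values in the text come from edgeR where no tool is named. Standard errors came from the F statistic, and the common biological coefficient of variation was 0.876. An exact permutation test of 3 against 2 libraries cannot give a p under 0.1, so none was used. The code was tested on simulated counts.

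The comparison and its 55 gene lists were chosen with earlier results of these data known, so lists are described by counts and medians only. Named genes were the 12 lowest p without overlap per direction, up to 6 lowest p with 10 or more counts in each of the 5 libraries, up to 3 per list, a panel of 11, and the 3 lowest p per direction for the difference between c-Myc classes. List members named beyond these were chosen after their values were seen. Predicted genes were not named. Some single genes are counted but not reported here. Alternative settings numbered 26 and included DESeq2 1.42.0, limma 3.58.1 on counts and on log2(RPKM + 1) and log2(RPKM + 0.1), other scalings and filters, a replicate block, and each library left out. Gene positions are from GENCODE M21 (GRCm38, the assembly of mm10), which held 95.7% of the transcripts.

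Chi-square values per degree of freedom of 168 to 222 between replicates showed no library deposited again in its group.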

Additional observations from a re-analysis of the deposited data

How the results depend on the processing

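The counts of genes higher and lower in metastatic c-Myc-high cells (278 and 389) moved with the method. They were 2002 and 1246 with DESeq2, 0 and 166 with limma-voom and quality weights, 4 and 71 with limma-trend on log2(RPKM + 1), and 100 and 178 on log2(RPKM + 0.1). No filter on low counts gave 559 and 714, a filter of 10 counts in 5 libraries 220 and 192, the 5 c-Myc-high libraries alone 6 and 149, and the top transcript in place of the sum 104 and 231. The replicate block gave 23 and 127, but the numbers are not shown to pair libraries, since same-numbered primary and metastatic c-Myc-high libraries deviated together at correlations of 0.141 and -0.0947. DESeq2 size factors in edgeR (230 and 395), upper quartile factors (285 and 351), leaving out Lars2, Gm13340 and Gm20594 (230 and 414) and no robust estimation (306 and 408) stayed within 1.5 times. The median log2 fold change of all genes was 0.38 with TMM, 0.28 and 0.48 with those factors and 0.23 without the 3 genes. Leaving out 1 library of the 10 gave 49 to 720 higher and 214 to 746 lower genes, the extremes without metastatic c-Myc-low replicate 2, metastatic c-Myc-high replicate 3, metastatic c-Myc-high replicate 1 and primary c-Myc-high replicate 2. Among alternatives chosen after seeing the data, leaving out both salivary-rich libraries gave 0 and 0, leaving the salivary list out of library sizes 278 and 393, and a term for the Xist and Y-linked pattern 304 and 381. The cause of these shifts was not tested, and some of these settings also held fewer genes or samples. The difference between c-Myc classes gave 84 genes with DESeq2, 1 without a filter and 0 in the other fits that allowed it. Counted over named genes and alternatives, higher genes kept their call 789 times and lost it 480 times, and lower genes kept it 1021 times and lost it 174 times, with none reversed. Depth limits the bounds of higher genes, because primary replicate 2 has the smallest count.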

Other observations

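Marker lists of fibroblasts, red blood cells and Schwann cells held no called gene, beside 1.65% higher and 2.31% lower over all genes tested. Such short lists without a call are not read as a result about them. The 19 fibroblast genes had a median of -2.42, and their summed level was 2460 and 6102 CPM in primary and 220.2, 933 and 373 CPM in metastatic c-Myc-high libraries, which did not overlap. Postn, a matrix protein of fibroblasts, had 1915 and 433 CPM in primary and 16.7, 115 and 85.4 CPM in metastatic libraries (log2 change -4.02, SE 1.06, adjusted p = 0.0566). Red blood cell genes were high in 1 library of each group, with 1617 CPM in primary replicate 2 and 1626 CPM in metastatic replicate 2, against 3.60 to 116 CPM in the other 3. Schwann cell genes reached 2001 CPM in metastatic replicate 3 and 122 to 382 CPM in the other 4, and S100b had 1232 CPM in that library.

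Other named genes had values near the threshold. Txnip, a thioredoxin-binding protein induced by glucose, had 55.9 and 13.1 CPM in primary and 480.4, 385 and 110.4 CPM in metastatic libraries (log2 change 3.22, SE 0.90, adjusted p = 0.0654). Fosl1, a subunit of AP-1, had 396 and 11.2 CPM in primary and 0, 7.13 and 0.511 CPM in metastatic libraries (log2 change -6.23, SE 1.63, adjusted p = 0.0553). Slc45a2, a melanosome transporter, had 49.2 and 11.2 CPM in primary and 311, 104 and 824 CPM in metastatic libraries (log2 change 3.75, SE 1.15, adjusted p = 0.0825). In each of these 3 genes the groups did not overlap. Slc2a1, the main glucose importer, had a log2 change of -2.21 (SE 0.66, adjusted p = 0.0768).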
